A study of Mus musculus with 69 samples.

Results

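Ccr7, Ccr9, Cxcr3, Cxcr4, Cxcr5, Cxcr6, Cx3cr1 and S1pr1 encode receptors that tell a T cell where to go. They were picked by name, as 8 of the 24309 gene symbols that the count tables share, by a rule that uses no expression value, although earlier results of these data were known when they were picked. Read counts per gene were available for 48 RNA-seq libraries of CD8+ T cells, 15 libraries of naive CD4+ T cells and 4 libraries of retrovirus-transduced cells labelled CD8+ T cells. The cells came from pooled lymph nodes and spleens of mice aged 8 to 16 weeks, and the deletions they carried were germline, so every cell of an animal had them.

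WT mice were Stat5a+/+ Stat5b+/+ and kept all STAT5 alleles. AAB mice were Stat5a-/- Stat5b+/- and kept 1 Stat5b allele, and BBA mice were Stat5a+/- Stat5b-/- and kept 1 Stat5a allele. CD8+ cells were sorted by CD44 and a second surface marker as naive (Tnv, CD44 low), central memory (Tcm, CD44 high) or effector memory (Tem, CD44 high). Tnv and Tcm were kept without added cytokine (NC) or given IL-7 or IL-15, whereas Tem had no cytokine or IL-15, with 2 libraries for each genotype and culture. The labels give 12 to 16 h of culture for all of them, whereas the study's methods describe the cells without cytokine as taken directly ex vivo. Naive CD4+ cells were studied without cytokine (3 WT, 2 AAB and 2 BBA libraries) or with IL-7 (3 WT, 2 AAB and 3 BBA libraries). Both retrovirus groups were labelled CD8+ T cells of AAB mice and, by the study's methods, were stimulated through CD3 and CD28, transduced with a constitutively active STAT5A (CA-STAT5A) or with the control vector, grown in IL-2 and sorted for the vector's GFP (2 libraries each). The question was how these receptors differed by genotype, cell state and cytokine. IL-7 and IL-15 both activate STAT5, a transcription factor made from the neighbouring genes Stat5a and Stat5b.

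T cells leave the blood, cross a tissue and return by reading gradients of chemokines and of the lipid S1P through G protein-coupled receptors. Ccr7 binds CCL19 and CCL21 and brings naive and central memory cells into the T zone of lymph nodes, and S1pr1 senses S1P and lets them leave again. Ccr9 binds CCL25, which the thymus and small intestine make, and Cxcr4 binds CXCL12, a retention signal of bone marrow. Cxcr5 binds CXCL13 of B cell follicles. Cxcr3 binds CXCL9, CXCL10 and CXCL11 of inflamed tissue, Cxcr6 binds CXCL16 and marks cells that stay in tissues such as the liver, and Cx3cr1 binds CX3CL1 and marks effector cells that patrol vessels.

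In the GRCm38 annotation all are protein-coding genes. Ccr7 lies on chromosome 11 from 99144199 to 99155077 on the minus strand, and S1pr1 on chromosome 3 from 115710433 to 115715055 on the minus strand. Cxcr4 lies on chromosome 1 from 128588199 to 128592299 (minus), and Cxcr3 on chromosome X from 101731535 to 101734147 (minus). Chromosome 9 carries the other 4. Cxcr5 spans 44511787 to 44526444 (minus), Cx3cr1 120048683 to 120068296 (minus), Ccr9 123767211 to 123783457 (plus) and Cxcr6 123806477 to 123811754 (plus). Ccr9 shares 1932 exon bases with the antisense gene AC165425.1, and Cxcr5 shares 110 with Bcl9l. Whether the authors counted by strand is not given in the sources used here, so the values of Ccr9 and Cxcr5 are uncertain to that extent.

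Promoter windows from the RefSeq table (GRCm38.p6, 250 bases before and 50 after the start) were found for Ccr9, Cx3cr1, Cxcr4, Cxcr6 and Cxcr3. The stretch upstream of the start is shown for Ccr9 (chr9:123766961-123767210, plus strand), Cx3cr1 (chr9:120068297-120068546, minus strand) and Cxcr4 (chr1:128592300-128592549, minus strand), each 5′ to 3′. These are the receptors with a window whose transcripts differed between WT and BBA cells in culture with IL-15.
Ccr9: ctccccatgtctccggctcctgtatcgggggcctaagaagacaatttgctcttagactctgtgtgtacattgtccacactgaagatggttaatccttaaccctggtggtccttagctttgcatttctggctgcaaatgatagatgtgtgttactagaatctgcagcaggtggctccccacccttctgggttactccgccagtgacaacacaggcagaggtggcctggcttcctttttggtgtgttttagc
Cx3cr1: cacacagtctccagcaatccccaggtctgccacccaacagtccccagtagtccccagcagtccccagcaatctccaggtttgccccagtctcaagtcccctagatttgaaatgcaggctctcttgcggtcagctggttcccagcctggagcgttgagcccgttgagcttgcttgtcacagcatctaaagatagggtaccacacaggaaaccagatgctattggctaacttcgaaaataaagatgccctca
Cxcr4: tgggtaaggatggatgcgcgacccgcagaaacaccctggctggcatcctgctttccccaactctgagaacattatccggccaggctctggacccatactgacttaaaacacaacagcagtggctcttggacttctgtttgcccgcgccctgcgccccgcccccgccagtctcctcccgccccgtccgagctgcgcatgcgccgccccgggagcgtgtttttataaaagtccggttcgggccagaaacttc
No letter is in capitals, because none of 4 motifs searched on both strands occurred in any of the 5 windows. The STAT motif TTCNNNGAA was present in 8.3% of 32851 promoter windows of 300 bases, the FOXO motif GTAAACA in 3.65%, the T-box motif AGGTGTGA in 1.28% and the KLF motif CACACCC in 7.95%. The absence says only that these letters are not in these windows.

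CD8+ libraries held 5926139 to 25612758 gene-level counts, CD4+ libraries 6705004 to 34118295 and the retrovirus set 11020965 to 16516525. Stat5a was at 0.968 to 4.90 CPM (counts scaled by library size and TMM) in AAB CD8+ cells against 32.5 to 108 in WT cells, as the labels state. Stat5b was at 48.9 to 94.1 in BBA against 164 to 353 in WT, lower but not absent. In AAB it was at 78.5 to 141, which overlapped BBA. In the 48 CD8+ libraries Cd8a and Cd8b1 summed to 1218 to 3219 CPM, and 4 NK cell markers to at most 13.1. Markers of other cells reached higher sums, B cells 406 CPM (median 96.6), CD4 T cells 328 (median 12.9) and myeloid cells 216 (median 31.8). The part of such cells in the receptor levels was not tested. The 4 retrovirus libraries went against their label, as described with their results. Replicate 2 of WT Tnv with IL-15 had 237 CPM of Cd4 and 181 of Foxp3 against 6.54 and 19.0 in replicate 1, and calls in the comparisons with IL-15 that change without it are given beside them. Replicate 1 of WT Tcm with IL-7 also stood apart from its pair. All CD4+ libraries, all Tnv libraries with IL-7 and both WT Tcm libraries with IL-7 came from males by their Xist and Y-linked counts, as did replicate 2 of AAB and BBA Tcm with IL-7, and the other CD8+ libraries outside the retrovirus set came from females. In Tnv of all 3 genotypes and in WT Tcm, every library without cytokine was female and every library with IL-7 male, so IL-7 and the sex of the mice cannot be told apart there. As these are bulk libraries, fewer cells that express a receptor and less RNA per cell cannot be told apart. The study's methods call its replicates biological, and the labels do not tie libraries to animals, so p-values measure the spread between these libraries.

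Per kilobase of transcript, Ccr7 was the most abundant of the receptors, with a median of 263 CPM per kb over the 48 CD8+ libraries. S1pr1 followed at 130 CPM per kb, Cxcr3 at 100.4 and Cxcr4 at 69.5. Cxcr6 (24.1), Cxcr5 (17.6) and Ccr9 (10.2) were lower, and Cx3cr1 was at 0.921 CPM per kb.

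The receptors differed in how far they varied. Between the lowest and highest of the 24 CD8+ group means, in CPM, Ccr7 differed 3.56-fold and S1pr1 3.89-fold, and in none of the 24 groups did the libraries of a pair differ by more than 2-fold. Cxcr4 spanned 6.58-fold, from WT Tcm with IL-15 to BBA Tnv without cytokine, and Cxcr6 7.59-fold. Cxcr5 spanned 24.4-fold, Cx3cr1 167-fold, Cxcr3 212-fold and Ccr9 241-fold. The replicate pair differed by more than 2-fold in 9 groups for Cxcr6, 8 for Cx3cr1, 6 for Ccr9, 3 for Cxcr5, 2 for Cxcr3 and 1 for Cxcr4, so single values of Cxcr6 and Cx3cr1 were the least firm.

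**Figure D1:**
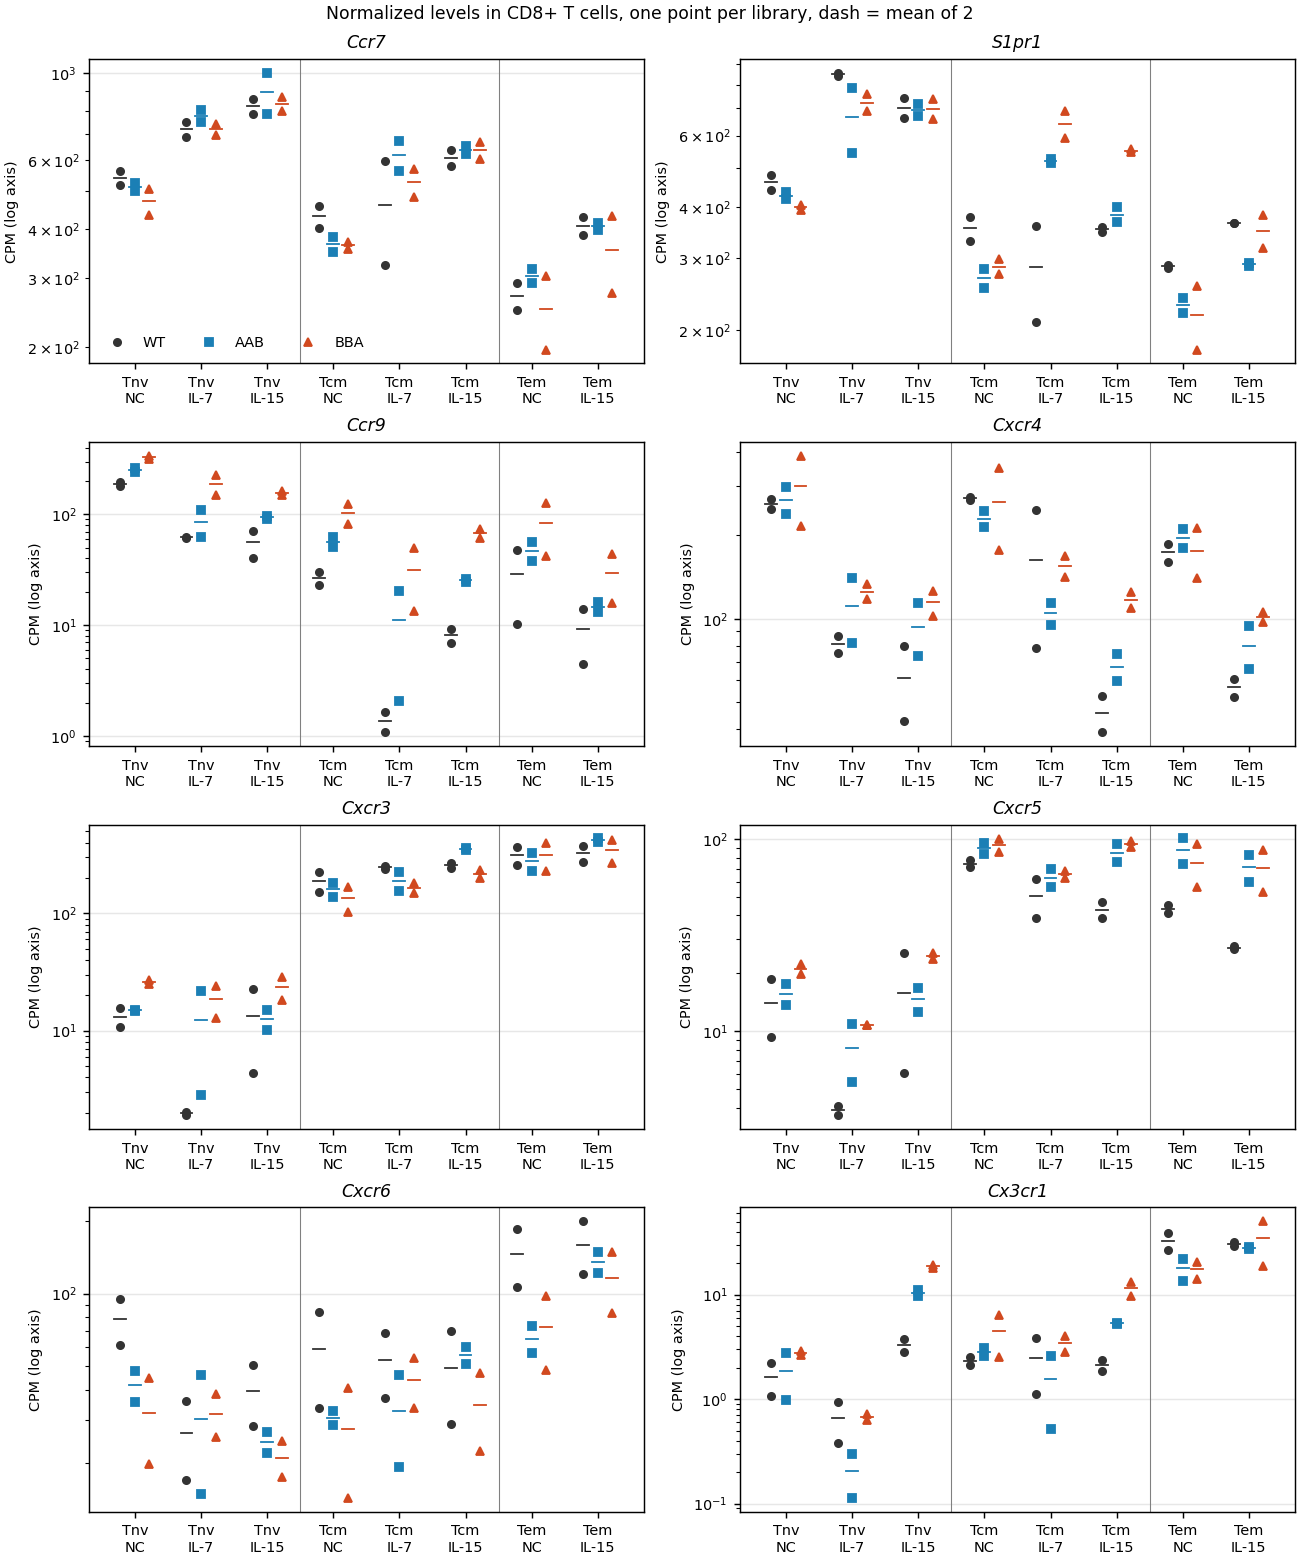
Level of each receptor in the 48 CD8+ libraries, in TMM-normalized CPM on a log axis, by cell state and culture; points are libraries coloured by genotype and dashes are the means of 2 libraries. Ccr7 and S1pr1 stay within a 3.56-fold and a 3.89-fold range of group means, while Ccr9 runs from 1.36 CPM in WT Tcm with IL-7 to 328 CPM in BBA Tnv without cytokine.

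The receptors differed between cell states. Here and below a gene passed edgeR's quasi-likelihood test when its fold difference exceeded 1.5 and its p, adjusted by Benjamini-Hochberg, was under 0.05, and differences are on the log2 scale with their standard error (SE). Without cytokine, WT Tcm exceeded WT Tnv in 2 of the 8 receptors tested, where 2.71% of all genes passed. Between WT Tem and Tcm 1 of 8 passed (all genes 1.9%), and between Tem and Tnv 6 of 8 (all genes 7.91%), 3 of them higher and 3 lower in Tem.

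Cxcr3, the receptor for the chemokines of inflamed tissue, was at 10.8 and 15.4 CPM in WT Tnv against 225 and 151 in Tcm and 371 and 258 in Tem. The memory states did not overlap with Tnv, and the difference was 3.82 ± 0.29 for Tcm (adjusted p = 0.0022) and 4.6 ± 0.30 for Tem (adjusted p = 0.00044). Cxcr5, the follicle receptor, was at 9.29 and 18.6 CPM in Tnv against 71.2 and 77.2 in Tcm and 41.3 and 45.2 in Tem. It was higher than in Tnv by 2.40 ± 0.29 in Tcm (adjusted p = 0.0089) and by 1.65 ± 0.28 in Tem (adjusted p = 0.015).

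Cx3cr1 separated Tem from both other states. Its level was 1.08 and 2.22 CPM in Tnv against 2.51 and 2.12 in Tcm and 39.1 and 26.5 in Tem, or 3.87 ± 0.33 above Tcm on the log2 scale (adjusted p = 0.0061). Only the Tem libraries carried it past the filter on low counts, so a difference was built into its being tested. Cxcr6, the other receptor of tissue cells, was at 95.3 and 61.0 CPM in Tnv against 84.1 and 33.8 in Tcm and 185 and 107 in Tem. The Tem libraries were the highest, but the difference from Tcm, 1.36 ± 0.45, had an adjusted p of 0.26.

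The recirculation receptors ran the other way. Ccr7 was at 562 and 517 CPM in WT Tnv against 459 and 402 in Tcm and 249 and 292 in Tem, and the Tem libraries lay below all others, -0.96 ± 0.13 against Tnv (adjusted p = 0.0065). S1pr1 was at 481 and 441 CPM in Tnv against 379.5 and 332 in Tcm and 285 and 289 in Tem, and Tem differed from Tnv by -0.65 ± 0.12 (adjusted p = 0.016). That call was kept in 2 of 6 fits without 1 library. Ccr9, the gut and thymus receptor, was at 198 and 180.0 CPM in Tnv against 23.2 and 30.1 in Tcm and 10.2 and 47.6 in Tem. Both memory states lay under Tnv, with an adjusted p of 0.038 for Tem (-2.65 ± 0.59) and 0.064 for Tcm (-2.81 ± 0.59). Cxcr4 differed least, at 249 and 269.8 CPM in Tnv against 268 and 276 in Tcm and 186 and 161 in Tem, and passed in none of the 3 comparisons.

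In culture with IL-7 the same genes led. Cxcr3, Cxcr5 and Ccr9 were the 3 of 7 receptors tested that passed between WT Tcm and Tnv (all genes 4.92%). Cxcr3 was at 2.04 and 1.90 CPM in WT Tnv and 241 and 256 in WT Tcm, a difference of 6.94 ± 0.19 (adjusted p = 0.0016). Cxcr5 was at 3.66 and 4.09 CPM against 62.0 and 38.9, with Tcm again above Tnv by 3.66 ± 0.29 (adjusted p = 0.0097). Ccr9 went from 62.5 and 61.3 CPM in Tnv to 1.65 and 1.08 in Tcm, -5.56 ± 0.25 (adjusted p = 0.0032). No Tnv library with IL-7 carried Cxcr3, and no Tcm library carried Ccr9, past the filter.

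With IL-15, 3 of 8 receptors passed between WT Tcm and Tnv (all genes 7.38%), 1 of 8 between Tem and Tcm (2%) and 4 of 8 between Tem and Tnv (2.7%). Cxcr3 was higher in Tcm than in Tnv by 4.19 ± 0.65 (adjusted p = 0.018), and by 5.85 (adjusted p = 0.0024) without the Tnv library that had CD4 and Foxp3 transcripts. Ccr9 was lower in Tcm by a log2 difference of -2.81 ± 0.55 (adjusted p = 0.032), and S1pr1 likewise by -1.02 ± 0.10 (adjusted p = 0.0085). The receptor that passed between Tem and Tcm was Cx3cr1, at 3.89 ± 0.26 (adjusted p = 0.0090), a call kept in 3 of 6 fits without 1 library. As without cytokine, only the Tem libraries carried it past the filter. Between Tem and Tnv, Cxcr3 and Cx3cr1 were higher and Ccr7 and S1pr1 lower. The call of Cx3cr1 was kept in 6 of 6 fits without 1 library, that of Ccr7 in 3 of 6 and those of Cxcr3 and S1pr1 in 2 of 6 each. Without the Tnv library named above Cxcr5 also passed, at 2.79 for Tcm (adjusted p = 0.0055) and 2.19 for Tem (adjusted p = 0.0069) against Tnv. Over the 7 state comparisons 20 receptor calls were made, and 13 were made when either WT Tcm library with IL-15 was left out.

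In WT Tnv the recirculation and retention receptors differed in opposite directions between cells with and without cytokine. If the cells without cytokine were taken ex vivo, as the study's methods have it, these comparisons also set overnight culture against none, and the IL-7 ones male against female mice, and the cytokine cannot be told apart from these. The limit on culture holds for every comparison of cytokine against none below, in Tcm, Tem and naive CD4+ cells as well. With IL-7, 5 of 7 receptors tested passed (all genes 20.2%), and with IL-15 4 of 7 (all genes 6.17%). S1pr1 went from 481 and 441 CPM without cytokine to 855 and 840.2 with IL-7 and 663 and 742 under IL-15. The rise was 0.88 ± 0.10 with IL-7 (adjusted p = 0.0015) and 0.64 ± 0.10 with IL-15 (adjusted p = 0.014). The IL-15 call was kept in 3 of 6 fits without 1 library, and without the library with CD4 and Foxp3 transcripts the difference was 0.55 (adjusted p = 0.0062), under the limit of fold. Ccr7 went from 562 and 517 CPM to 684 and 750.2 with IL-7 and 858 and 787 under IL-15. Its increase passed with IL-15 (0.64 ± 0.10, adjusted p = 0.012), while that with IL-7 was 0.41 ± 0.10, under the limit of fold.

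Ccr9 and Cxcr4 fell with both cytokines. Ccr9 was at 198 and 180.0 CPM without cytokine, 62.5 and 61.3 with IL-7 and 71.4 and 40.6 under IL-15, changes of -1.61 ± 0.23 (adjusted p = 0.0032) and -1.73 ± 0.23 (adjusted p = 0.0084). Cxcr4 was at 249 and 269.8 CPM, then 75.0 and 86.6 with IL-7 and 79.8 and 42.7 under IL-15, or -1.68 ± 0.25 (adjusted p = 0.0039) and -2.06 ± 0.26 (adjusted p = 0.0069). In neither gene did a library with cytokine reach one without. Cxcr3 and Cxcr6 fell with IL-7, Cxcr3 from 10.8 and 15.4 to 2.04 and 1.90 CPM and Cxcr6 from 95.3 and 61.0 to 36.1 and 16.9. Only the libraries without cytokine carried Cxcr3 past the filter, and its call was kept in 2 of 6 fits without 1 library and that of Cxcr6 in 3 of 6. With IL-15 Cxcr3 was at 4.36 and 22.6 CPM, and the higher value was the library with CD4 and Foxp3 transcripts. Without that library Cxcr3 fell with IL-15 as well, by 1.57 on the log2 scale (adjusted p = 0.022).

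WT Tcm gave fewer calls. With IL-7, 1 of 8 receptors passed (all genes 0.353%), and with IL-15 no gene of any kind passed in edgeR (0%), although 1386 genes had an unadjusted p under 0.05. The receptor that passed was Ccr9, which fell from 23.2 and 30.1 CPM to 1.65 and 1.08 (-4.33 ± 0.34, adjusted p = 0.0053). Only the libraries without cytokine carried it past the filter, so a fall was built into its being tested. With IL-15 Ccr9 was at 6.89 and 9.30 CPM and Cxcr4 at 52.7 and 38.9 CPM against 268 and 276 without cytokine, with no overlap in either case, and both had an adjusted p of 0.17. Replicate 1 of WT Tcm with IL-7, which enters the same fit, had 323 CPM of Ccr7, 209 of S1pr1 and 247 of Cxcr4 against 597, 361 and 78.7 in replicate 2. Without it, Ccr9 (-1.74, adjusted p = 0.0078), Cxcr4 (-2.58, adjusted p = 0.00088) and Cxcr5 (-0.81, adjusted p = 0.023) passed with IL-15, and Cxcr4 (-1.80, adjusted p = 0.0044) and Cxcr5 (-0.94, adjusted p = 0.027) passed beside Ccr9 with IL-7.

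With all libraries, Tcm of the deficient genotypes gave more calls than WT Tcm. Against WT Tcm without replicate 1 with IL-7, named above, they did not give more. In AAB Tcm, 3 of 7 receptors passed with IL-7 (all genes 9.92%) and 3 of 7 with IL-15 (2.86%). Ccr7 rose with both (0.77 ± 0.12 and 0.83 ± 0.12) and Cxcr4 fell with both (-1.12 ± 0.14 and -1.74 ± 0.14). S1pr1 rose with IL-7, from 254 and 283 to 525 and 515 CPM. Cxcr3 rose with IL-15, from 183 and 138 to 358 and 347 CPM (1.17 ± 0.19, adjusted p = 0.025). In BBA Tcm, 1 of 8 passed with IL-7 (8%), which was S1pr1, from 274 and 298 to 688 and 592 CPM. With IL-15 3 of 8 passed (6.92%), and S1pr1 (0.99 ± 0.11) and Ccr7 (0.85 ± 0.11) rose while Cxcr4 (-1.12 ± 0.27) fell. The S1pr1 call was kept in 6 of 6 fits without 1 library, that of Ccr7 in 5 of 6 and that of Cxcr4 in 1 of 6.

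Naive AAB and BBA cells also differed between cultures, and as in WT Tnv the cytokine cannot be told apart from the other differences named there. In AAB Tnv, 4 of 8 receptors passed with IL-7 (all genes 9.09%) and 5 of 8 with IL-15 (10.6%), and in BBA Tnv 5 of 8 passed with IL-7 (6.96%) and 5 of 8 with IL-15 (16.5%). Ccr9 and Cxcr4 fell in all 4 comparisons, Ccr9 by a log2 value of -0.80 to -1.56 and Cxcr4 by -1.27 to -1.47. S1pr1 also rose in 3 of the 4, all but AAB with IL-7, where the libraries were at 544 and 785 CPM against 436 and 419 without cytokine. Ccr7 rose in 3 of the 4, all but BBA with IL-7 (0.61 ± 0.16, adjusted p = 0.056), and Cxcr5 fell in BBA with IL-7 (-0.97 ± 0.18, adjusted p = 0.018). The Ccr7 call in AAB with IL-7 was kept in 1 of 6 fits without 1 library, and with a replicate block its difference was 0.60 and did not pass. It is thus not shown to differ from BBA with IL-7. With IL-15 the Ccr7 call was kept in 2 of 6 such fits for AAB and 5 of 6 for BBA. Cx3cr1 moved apart between the cytokines. In BBA Tnv it was at 2.87 and 2.66 CPM without cytokine, 0.713 and 0.632 with IL-7 and 18.0 and 19.3 under IL-15, a fall of -2.02 ± 0.40 (adjusted p = 0.022) and a rise of 2.82 ± 0.34 (adjusted p = 0.0013). In AAB Tnv the levels were 0.974 and 2.74 CPM without cytokine, 0.30 and 0.113 with IL-7 and 9.77 and 11.1 under IL-15, again lower with IL-7 (-2.96 ± 0.73) and higher with IL-15 (2.53 ± 0.53). Only the IL-15 libraries carried the gene past the filter in these fits, so the IL-7 calls compare levels under it. The IL-7 calls were kept in 2 of 6 fits without 1 library for BBA and 1 of 6 for AAB. The AAB one was also lost with a replicate block. The IL-15 calls were kept in 6 of 6 for BBA and 3 of 6 for AAB. WT Tnv, at 1.08 and 2.22 CPM without cytokine and 2.85 and 3.80 with IL-15, had too few counts for the test of the cytokine.

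Tem with IL-15 gave 1 call of 8 in WT (1.52%), 1 of 8 in AAB (0.94%) and none of 8 in BBA cells (0.432%). Cxcr4 fell in WT Tem from 186 and 161 to 60.6 and 52.3 CPM (-1.60 ± 0.12, adjusted p = 0.017), and in BBA Tem it went from 140.5 and 212 to 105 and 97.2 CPM and did not pass. Ccr9 fell in AAB Tem from 37.8 and 55.9 to 16.0 and 13.1 CPM (-1.67 ± 0.24, adjusted p = 0.049), a call kept in 2 of 4 fits without 1 library. These counts of cytokine calls moved with single libraries. In WT cells 11 calls became 5 without replicate 2 of Tnv without cytokine and 16 without replicate 1 of Tcm with IL-7. In AAB cells 16 became 8 without replicate 2 of Tnv without cytokine or either Tnv library with IL-15, and in BBA cells 14 became 7 without replicate 2 of Tnv without cytokine.

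**Figure D2:**
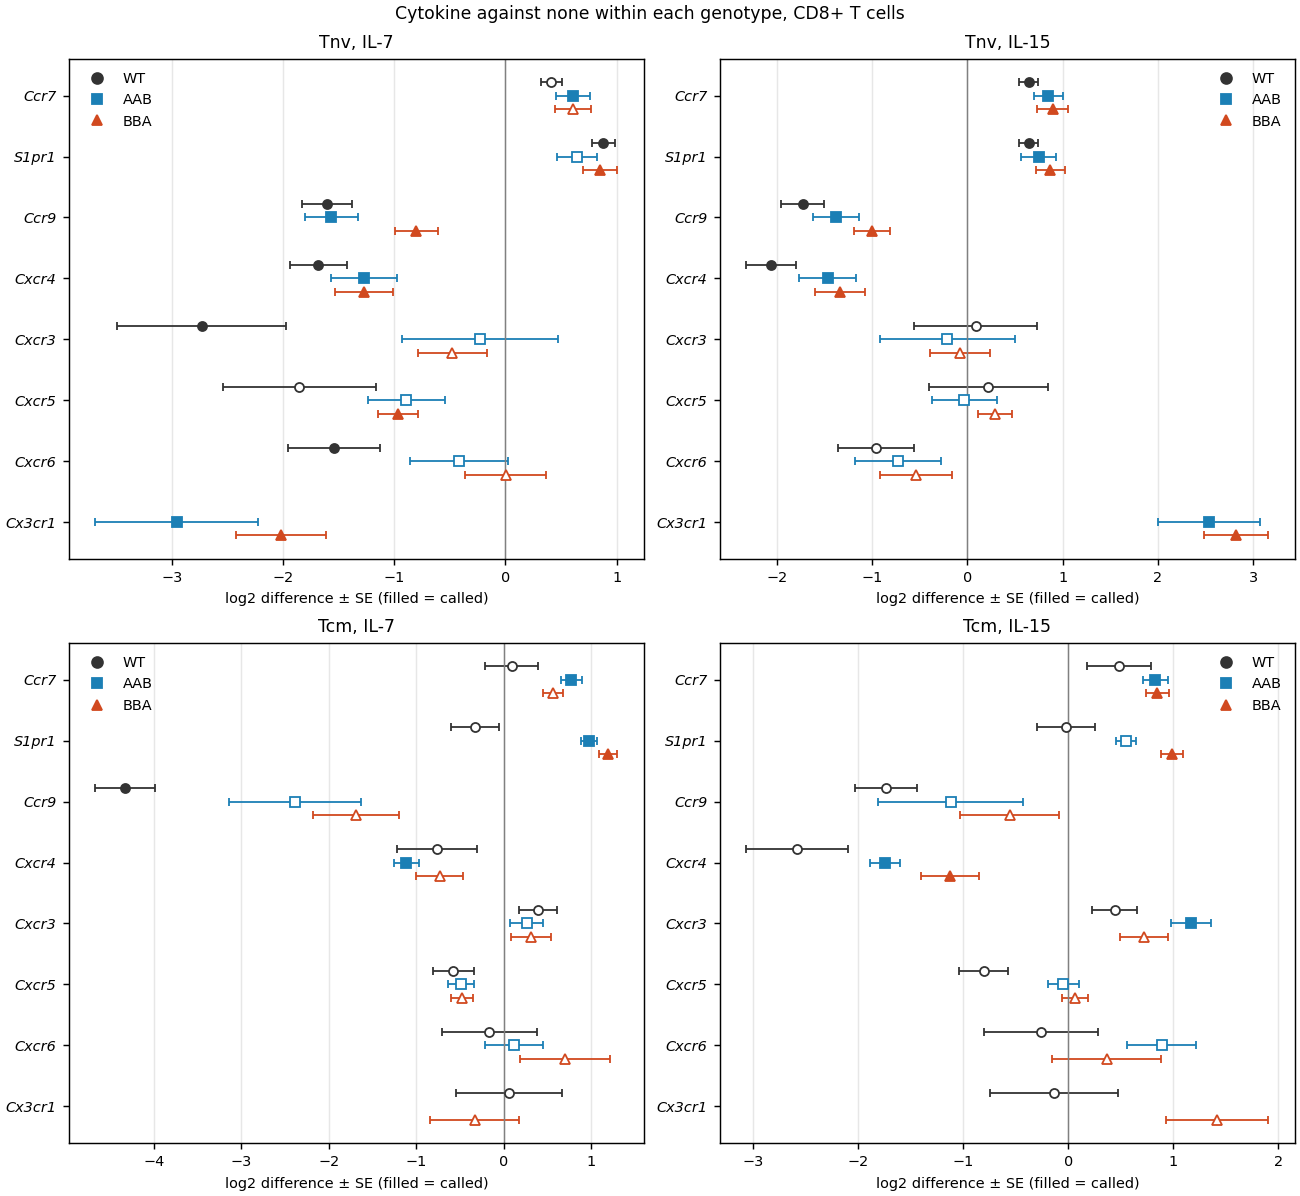
Log2 difference (cytokine against none, with its SE as the bar) of each receptor in WT, AAB and BBA cells, for Tnv and Tcm under IL-7 and IL-15; filled points passed the test and receptors removed by the filter are missing. Cxcr4 lies under 0 and S1pr1 above 0 in most panels, with WT Tcm the exception for S1pr1.

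Ccr9 was higher in BBA than in WT cells in more CD8+ conditions than any other receptor. In BBA against WT, 11 receptor calls were made over the 8 CD8+ conditions, all higher in BBA, and Ccr9 made up 5 of them. They were 2 of 7 in Tnv without cytokine (all genes 2.78%), 1 of 7 in Tnv with IL-7 (2.69%), 2 of 8 in Tnv with IL-15 (9.43%), 1 of 7 in Tcm without cytokine (0.287%) and 5 of 8 in Tcm with IL-15 (23.7%). None of 7 passed in Tcm with IL-7 (3.09%), and none of 8 in Tem without cytokine (0.207%) or with IL-15 (1.79%). Without replicate 1 of WT Tcm with IL-7, 3 receptors passed in Tcm with IL-7, Cxcr4 (1.03, adjusted p = 0.012), Cxcr5 (0.80, adjusted p = 0.036) and S1pr1 (0.88, adjusted p = 0.010). The median log2 difference of the receptors tested with IL-15 was 0.74 for Tnv and 0.95 for Tcm, where the median of all genes was -0.01 and 0.02. The normalization centres the bulk of genes, so the latter are no independent background. Cx3cr1 enters both receptor medians, though no WT library with IL-15 carried it past the filter in these states. Cx3cr1 was tested in 4 of the 8 conditions, since its counts were too low in the others.

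Ccr9 in Tnv without cytokine was at 198 and 180.0 CPM in WT, 242 and 263 in AAB and 339 and 317 in BBA cells. The genotypes did not overlap, and BBA exceeded WT by 0.80 ± 0.09 (adjusted p = 0.0049). In Tnv with IL-15 the levels were 71.4 and 40.6 CPM in WT, 97.1 and 90.6 in AAB and 151 and 162 in BBA, in the same order, with a BBA difference of 1.52 ± 0.24 (adjusted p = 0.0089). In Tnv with IL-7 they were 62.5 and 61.3 CPM in WT, 62.0 and 109 in AAB and 150.0 and 228 in BBA, with WT and AAB overlapping. That BBA difference, 1.59 ± 0.29 (adjusted p = 0.045), was kept in 2 of 6 fits that left out 1 library.

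In Tcm the same receptor was at 23.2 and 30.1 CPM in WT, 50.3 and 61.9 in AAB and 82.0 and 124 in BBA cells without cytokine. BBA was higher by 1.97 ± 0.23 (adjusted p = 0.036), a call kept in 3 of 6 fits that left out 1 library. With IL-15 the levels were 6.89 and 9.30 CPM in WT, 26.0 and 24.6 in AAB and 61.7 and 73.9 in BBA. None of the 3 genotypes overlapped, and all 3 differences passed, BBA over WT by 3.13 ± 0.17 (adjusted p = 9.6e-05), AAB over WT by 1.69 ± 0.17 (adjusted p = 0.0047) and BBA over AAB by 1.44 ± 0.15 (adjusted p = 0.0055). All 3 calls were kept whichever library was left out. With IL-7 Ccr9 was at 1.65 and 1.08 CPM in WT, 20.4 and 2.06 in AAB and 49.4 and 13.5 in BBA Tcm, a BBA difference of 4.61 ± 1.16 with an adjusted p of 0.075. Both AAB and BBA replicates differed widely here, the higher one being from a female and the lower one from a male, as both WT libraries were. With a term for sex the difference was 3.08 (adjusted p = 0.108).

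Tem showed the same order of means for Ccr9 without a call. The levels without cytokine were 10.2 and 47.6 CPM in WT, 37.8 and 55.9 in AAB and 41.8 and 126 in BBA, and with IL-15 they were 4.48 and 14.0 CPM in WT, 16.0 and 13.1 in AAB and 15.7 and 43.6 in BBA. BBA and WT overlapped without cytokine, and with IL-15 the difference was 1.67 ± 0.68 (adjusted p = 0.28).

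**Figure D3:**
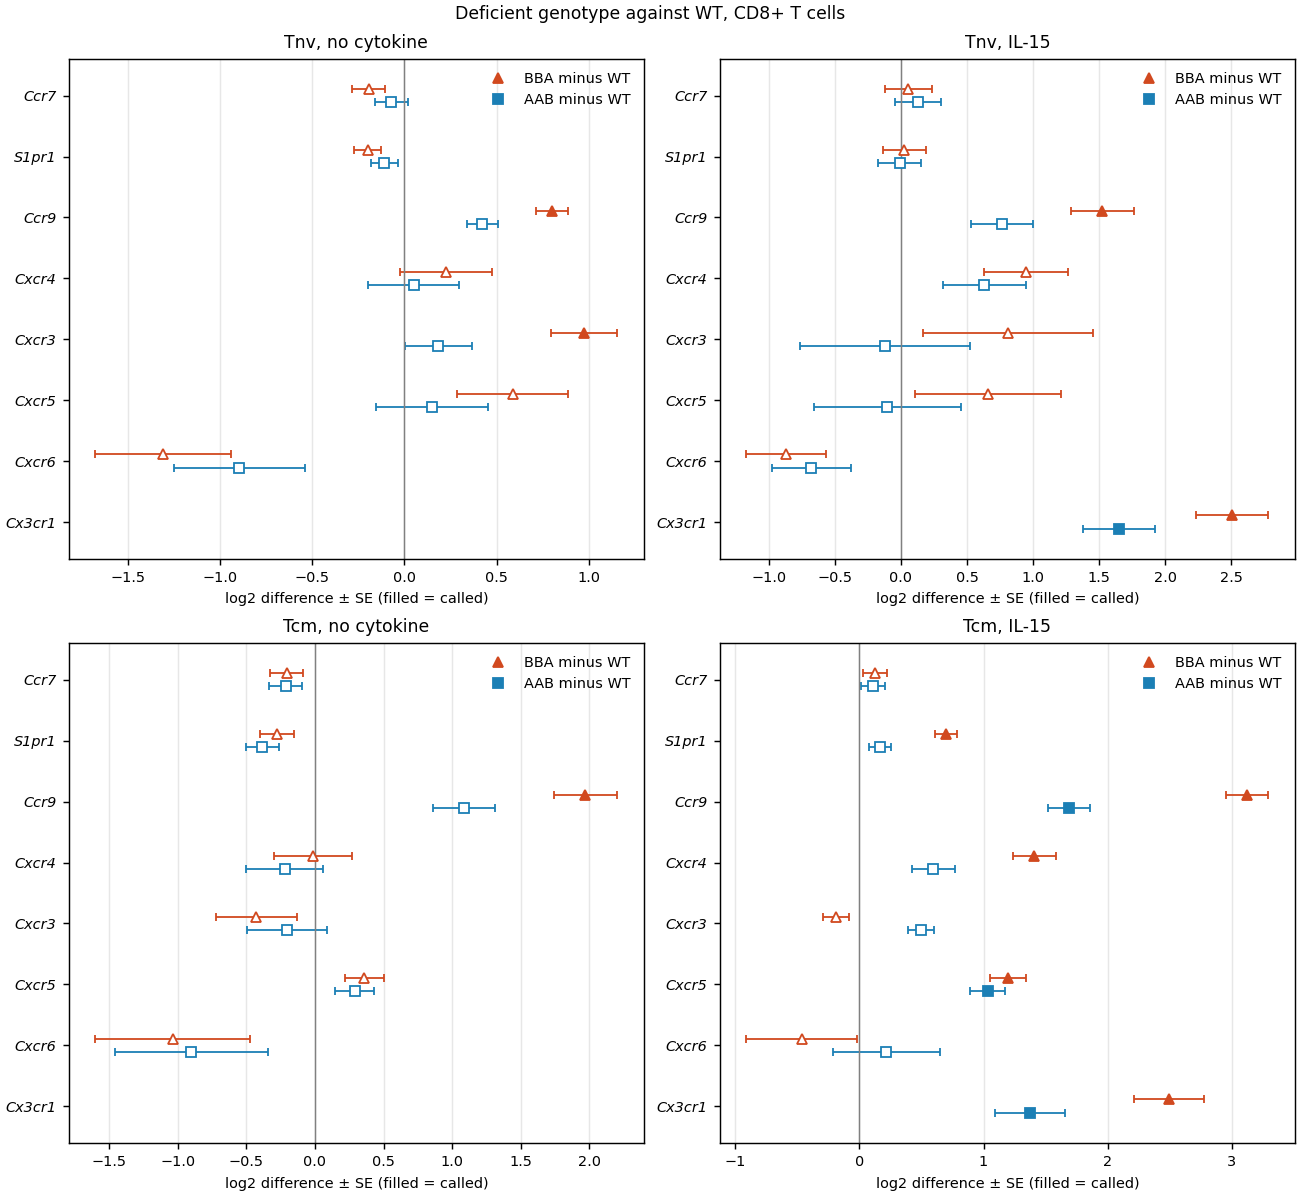
Log2 difference of each receptor in BBA and in AAB cells against WT, with its SE as the bar, in Tnv and Tcm without cytokine and with IL-15; filled points passed the test, and Cx3cr1 is missing where the filter removed it. Ccr9 in BBA passed in all 4 panels, from 0.80 in Tnv without cytokine to 3.13 in Tcm with IL-15.

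Cx3cr1 was higher in both deficient genotypes in Tnv and Tcm with IL-15. In Tnv it was at 2.85 and 3.80 CPM in WT, 9.77 and 11.1 in AAB and 18.0 and 19.3 in BBA, with no overlap. BBA exceeded WT by 2.51 ± 0.27 (adjusted p = 0.0040) whichever library was left out, and AAB by 1.65 ± 0.27 (adjusted p = 0.0496), a call lost in all 6 fits without 1 library. In Tcm it was at 1.87 and 2.36 CPM in WT, 5.27 and 5.34 in AAB and 13.3 and 9.74 in BBA. BBA differed from WT by 2.497 ± 0.28 (adjusted p = 0.00091), AAB from WT by 1.37 ± 0.28 (adjusted p = 0.035) and BBA from AAB by 1.12 ± 0.26 (adjusted p = 0.043). The first of these was kept whichever library was left out, the second in 2 of 6 fits and the third in 0 of 6. No WT library carried Cx3cr1 past the filter in these conditions, and in Tcm no AAB library did either. Part of the differences was thus built into its being tested, also that between BBA and AAB in Tcm. The AAB difference from WT in Tcm compares levels under the filter. With no filter all 5 of these calls were kept, for BBA against WT at 2.20 in Tnv and 2.24 in Tcm. Where Cx3cr1 was highest, in Tem, the order of means was the reverse without cytokine, with 39.1 and 26.5 CPM in WT, 22.1 and 13.5 in AAB and 20.7 and 14.1 in BBA, and neither difference from WT passed (adjusted p = 0.50 and 0.34). In Tem with IL-15 it was at 32.1 and 29.1 CPM in WT, 28.5 and 27.6 in AAB and 18.7 and 50.3 in BBA, the BBA libraries lying on both sides of WT.

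Cxcr4, the CXCL12 receptor, differed by genotype in Tcm with IL-15. WT Tcm were at 52.7 and 38.9 CPM, AAB at 74.8 and 59.6 and BBA at 109 and 125, with no overlap. The BBA difference was 1.41 ± 0.17 from WT (adjusted p = 0.0012) and 0.81 ± 0.17 from AAB (adjusted p = 0.033), and the AAB difference from WT was 0.60 ± 0.17 (adjusted p = 0.084). The BBA call against WT was kept in 6 of 6 fits without 1 library and that against AAB in 2 of 6. Without cytokine the same cells were at 268 and 276 CPM in WT and 177 and 351 in BBA, which overlapped. Tnv with IL-15 had 79.8 and 42.7 CPM in WT and 126 and 103 in BBA (0.95 ± 0.32, adjusted p = 0.12), and Tem with IL-15 60.6 and 52.3 and 105 and 97.2 CPM (0.86 ± 0.19, adjusted p = 0.087). Neither passed, though BBA lay above WT in both.

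Cxcr5 was higher in both deficient genotypes in Tcm with IL-15. The levels were 38.7 and 47.0 CPM in WT, 94.0 and 75.8 in AAB and 97.8 and 91.1 in BBA. WT lay below both, by 1.20 ± 0.14 for BBA (adjusted p = 0.0011) and 1.03 ± 0.14 for AAB (adjusted p = 0.011), whereas BBA and AAB were 0.16 ± 0.14 apart (adjusted p = 0.47). The BBA call was kept in 6 of 6 fits without 1 library and the AAB call in 4 of 6. Markers of B cells, which carry Cxcr5 themselves, were detected, 5 of 5, at a sum of 93.5 and 175 CPM in WT, 69.2 and 193 in AAB and 193 and 406 in BBA. They were higher in BBA but overlapped between AAB and WT, and their part in the Cxcr5 differences was not tested. In Tem the WT libraries also lay below the others, at 41.3 and 45.2 CPM against 100.5 and 74.0 in AAB and 93.9 and 56.3 in BBA without cytokine, and 26.8 and 27.6 against 82.4 and 59.6 in AAB and 87.6 and 53.0 in BBA with IL-15. Neither BBA difference passed (0.83 ± 0.25, adjusted p = 0.27, and 1.39 ± 0.28, adjusted p = 0.076).

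Ccr7 did not pass in any of the 8 conditions for BBA or AAB against WT. In Tcm with IL-15, where genotype differences were most common, it was at 577 and 637 CPM in WT, 621 and 649 in AAB and 604 and 666 in BBA, a BBA difference of 0.12 ± 0.10. S1pr1 was the recirculation receptor that differed there, at 349 and 358 CPM in WT, 399.9 and 369 in AAB and 546 and 556 in BBA. The BBA libraries lay above all others, by 0.70 ± 0.09 over WT (adjusted p = 0.0013). With filterByExpr, with no filter or with DESeq2 the difference was 0.47, 0.44 and 0.46, under the limit of 1.5-fold. BBA over AAB was 0.53 ± 0.09 (adjusted p = 0.019), also under that limit.

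Cxcr3 was higher in BBA than WT in Tnv without cytokine, at 26.9 and 24.9 CPM against 10.8 and 15.4 (0.97 ± 0.18, adjusted p = 0.031), a call kept in 3 of 6 fits without 1 library. In Tnv with IL-7, WT was at 2.04 and 1.90 CPM and BBA at 24.2 and 12.9, which did not overlap, with an adjusted p of 0.12. In Tnv with IL-15 the WT libraries, 4.36 and 22.6 CPM, enclosed part of the BBA ones, 18.4 and 28.5. Without the WT library with CD4 and Foxp3 transcripts, Cxcr3 (2.44, adjusted p = 0.011), Cxcr5 (2.04, adjusted p = 0.0086) and Cxcr6 (-1.25, adjusted p = 0.021) passed in that condition beside Ccr9 (1.15, adjusted p = 0.010) and Cx3cr1 (2.72, adjusted p = 0.0056). In Tcm with IL-15 Cxcr3 went the other way between the deficient genotypes, at 358 and 347 CPM in AAB and 233 and 201 in BBA, with WT at 270.1 and 244 between them. BBA lay below AAB by -0.69 ± 0.11 (adjusted p = 0.016), a call kept in 3 of 6 fits without 1 library.

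Cxcr6 was not called in BBA or AAB against WT in any CD8+ condition. Its WT libraries were the highest in Tnv without cytokine, 95.3 and 61.0 CPM against 48.1 and 35.7 in AAB and 44.7 and 19.7 in BBA, and in Tem without cytokine, 185 and 107 CPM against 73.2 and 57.0 in AAB and 97.2 and 48.3 in BBA. The BBA difference was -1.31 ± 0.37 in Tnv (adjusted p = 0.094) and -0.97 ± 0.36 in Tem (adjusted p = 0.38). Its replicates were among the least alike of the set.

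Calls for AAB against WT came only with IL-15. They were 1 of 8 in Tnv (all genes 0.893%) and 3 of 8 in Tcm (4.27%), all described above. There was none of 7 in Tnv without cytokine (all genes 0.166%) or with IL-7 (0.257%), none of 7 in Tcm without cytokine (0.0411%) or with IL-7 (0.0598%), and none of 8 in Tem without cytokine (0.0197%) or with IL-15 (0.019%). Few genes of any kind passed in those conditions. BBA and AAB themselves differed in 4 of 8 receptors in Tcm with IL-15 (all genes 5.99%), with Ccr9, Cxcr4 and Cx3cr1 higher and Cxcr3 lower in BBA. They differed in none in Tnv without cytokine (0.551%), under IL-7 (0.148%) or under IL-15 (0.0702%), in Tcm without cytokine (0.0411%) or with IL-7 (0.0898%), or in Tem without cytokine (0.0197%) or with IL-15 (0.00949%). The 4 AAB calls became 2 without replicate 1 of WT or of AAB Tcm with IL-15 and 7 without replicate 2 of WT Tcm with IL-7, and the 4 calls between BBA and AAB became 1 without replicate 2 of AAB or of BBA Tcm with IL-15.

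Whether a genotype difference itself depended on the culture was tested as the difference of the effects. The BBA effect in Tcm with IL-15 exceeded that without cytokine in 3 of 8 receptors (all genes 7.79%). S1pr1 had BBA below WT without cytokine (274 and 298 against 379.5 and 332 CPM) and above it with IL-15, a difference of effects of 0.96 ± 0.14 (adjusted p = 0.0038) that was kept in 12 of 12 fits without 1 library. Cxcr4 (1.41 ± 0.38, adjusted p = 0.049) was kept in 1 of 12 and Cxcr5 (0.83 ± 0.21, adjusted p = 0.039) in 7 of 12. For Ccr9 the value was 1.14 ± 0.31 with an adjusted p of 0.052, so its larger difference with IL-15 was not shown to depend on the cytokine. With all libraries none of the receptors passed in the other 19 comparisons of effects, in which 0% to 2.43% of all genes did. They included those between Tnv and Tcm and between Tcm and Tem with IL-15. The calls in Tcm and the lack of them in Tem are thus not shown to differ. With IL-15 the BBA effect on Ccr9 was larger in Tcm than in Tnv by 1.95 without WT Tnv replicate 2. It was larger by 1.13 without WT Tnv replicate 1, and whether it passed depended on the libraries used.

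In naive CD4+ cells the set was dominated by Ccr7 and S1pr1, and Cxcr3 and Cx3cr1 were at most at 2.65 and 1.09 CPM. BBA against WT gave 1 call of 5 receptors tested without cytokine (all genes 1.13%) and 3 of 6 with IL-7 (5.55%), all higher in BBA. Cxcr5 was at 4.49, 5.69 and 3.22 CPM in WT, 9.02 and 7.21 in AAB and 13.9 and 17.2 in BBA cells without cytokine. BBA lay above both others and exceeded WT by 1.82 ± 0.25 (adjusted p = 0.012), a call kept in 6 of 7 fits and lost without replicate 2 of BBA (1.66, adjusted p = 0.11). Foxp3, Il21 and Pdcd1, markers of regulatory and follicular helper cells, summed to 42.9 and 56.0 CPM in BBA and 32.4, 31.5 and 24.4 in WT, and their part in the result was not tested.

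With IL-7, Cxcr5 was at 2.39, 3.18 and 3.14 CPM in WT and 14.95, 6.49 and 5.54 in BBA (1.62 ± 0.41, adjusted p = 0.035). Ccr9 was at 2.54, 4.0 and 4.24 CPM in WT and 10.1, 6.71 and 25.4 in BBA (1.92 ± 0.50, adjusted p = 0.038), and no WT library carried Ccr9 or Cxcr5 past the filter. Cxcr4 was at 52.7, 36.2 and 60.6 CPM in WT and 109, 78.0 and 77.2 in BBA (0.84 ± 0.21, adjusted p = 0.033). In all 3 genes the BBA and WT libraries did not overlap. These calls rested on single libraries, since the 4 CD4+ calls in all became 1 without replicate 1 of BBA or without replicate 1 or 2 of WT with IL-7. Without replicate 1 of BBA the adjusted p was 0.052 for Ccr9 and 0.09 for Cxcr4. Cxcr5 passed the filter only through that library and was not tested without it. That library had the highest B cell marker sum of the BBA group (56.1, 12.8 and 26.1 CPM, against 9.88, 8.15 and 6.09 in WT), whose part was not tested. Cxcr6, at 8.80, 2.02 and 1.99 CPM in BBA and 1.05, 1.03 and 1.11 in WT, did not pass (adjusted p = 0.091).

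AAB gave no CD4+ call against WT without cytokine (none of 5, all genes 0.373%) or with IL-7 (none of 6, 0.627%), and BBA and AAB did not differ by the test either (none of 5, 0.0765%, and none of 6, 1.57%). DESeq2 called 1 receptor between BBA and AAB. The difference between cells with and without IL-7 was led by S1pr1, which in WT cells rose from 557, 521 and 345 CPM to 1328, 1160.3 and 1291 (1.41 ± 0.16, adjusted p = 0.00028). WT cells changed in 3 of 5 receptors tested (all genes 16.7%), AAB in 2 of 5 (11.2%) and BBA in 2 of 6 (12.4%). S1pr1 rose in AAB (1.01 ± 0.12) and BBA (1.06 ± 0.12) as well. Cxcr4 fell in WT, from 209, 74.9 and 247 to 52.7, 36.2 and 60.6 CPM (-1.85 ± 0.38), and in BBA (-1.07 ± 0.16), and Ccr9 fell in WT (-1.04 ± 0.33, adjusted p = 0.038). The Ccr9 call was kept in 1 of 6 fits without 1 library. Cxcr5 fell in AAB (-1.41 ± 0.32, adjusted p = 0.037), a call that was lost with no filter (adjusted p = 0.089). Ccr7 was at 551, 502 and 409 CPM without cytokine and 655, 672 and 755 with IL-7 in WT, under the limit of fold.

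**Figure D4:**
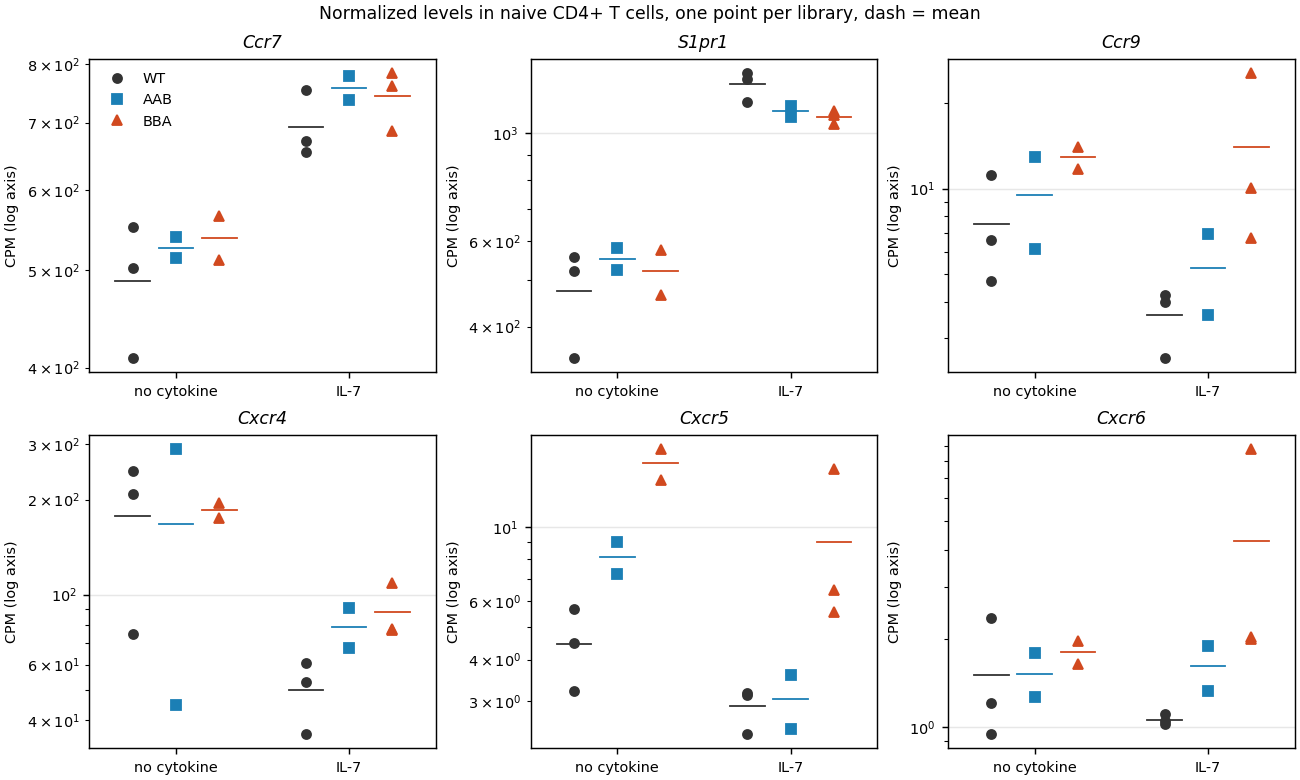
Level of 6 receptors in the 15 libraries of naive CD4+ cells, in TMM-normalized CPM on a log axis, by culture and genotype; points are libraries and dashes are group means. S1pr1 in WT lies at 345 to 557 CPM without cytokine and 1160 to 1328 CPM with IL-7, and Cxcr5 in BBA lies above every WT library of the same culture.

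The retrovirus libraries carried the label CD8+ T cells, and their markers went against it. Cd8a and Cd8b1 summed to 1.71 to 4.73 CPM, and Cd3d, Cd3e and Cd3g to 19.3 and 45.1 CPM with CA-STAT5A and 105 and 213 with the control vector. The NK cell markers Ncr1, Klrb1c and Klre1 were high, Ncr1 at 1129 and 1339 CPM with CA-STAT5A against 1459 and 1404 with the control, while Klra8, the fourth of that list, was at 0 to 0.12. Myeloid markers, mostly Itgam, summed to 1309 and 1162 CPM with CA-STAT5A and 585 and 454 without, and B cell markers to 9.39 and 26.0 with it and 146 and 89.9 without. Since the T cell, B cell and myeloid marker sums differed between the vectors, their part in each difference below cannot be told apart from that of CA-STAT5A. Stat5a was at 60.0 and 61.0 CPM in the libraries labelled CA-STAT5A and 8.45 and 3.22 in those labelled control. Replicate 1 of each vector came from males and replicate 2 from females.

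Between the libraries labelled CA-STAT5A and control, 5 of 7 receptors tested passed (all genes 6.76%), 1 higher and 4 lower. Cx3cr1 was at 149.8 and 397 CPM against 20.3 and 25, higher by 3.59 ± 0.45 (adjusted p = 0.0083). Cxcr6 was at 6.03 and 7.86 CPM against 41.1 and 90.3 (-3.25 ± 0.39, adjusted p = 0.0077), and Ccr7 at 3.35 and 4.53 against 22.6 and 16.4 (-2.32 ± 0.27, adjusted p = 0.0067). Cxcr3 was at 41.1 and 60.6 CPM against 179 and 199.97 (-1.90 ± 0.19, adjusted p = 0.0048). In these 4 receptors the groups did not overlap and each call was kept whichever library was left out. Cxcr5, at 3.17 and 6.10 CPM against 19.0 and 16.5 (-1.96 ± 0.32, adjusted p = 0.019), lost its call without replicate 1 of CA-STAT5A (-1.53, adjusted p = 0.052). B cell markers were lower in the same libraries.

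Cxcr4 and S1pr1 did not pass. Cxcr4 was at 192 and 323 CPM with CA-STAT5A and 282 and 174 with the control, and S1pr1 at 16.2 and 25.8 against 65.8 and 23.0, overlapping in each case. Ccr9 was at 0.853 and 1.85 CPM with CA-STAT5A and 3.02 and 1.16 with the control, too low to be tested. With a term for the sex of the mice, added after the data were seen, all 5 calls were kept.

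**Figure D5:**
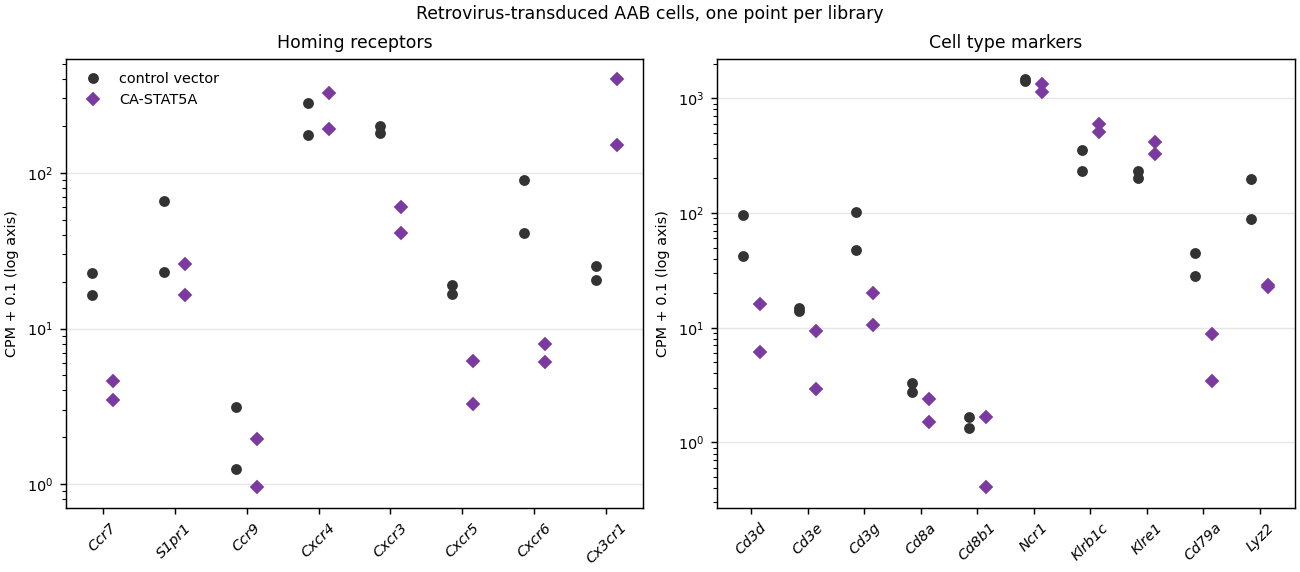
Level of the 8 receptors and of marker genes of T cells, CD8+ cells, NK cells, B cells and myeloid cells in the 4 retrovirus libraries, as CPM plus 0.1 on a log axis; each point is a library. Cx3cr1 lies higher and Cxcr6, Ccr7, Cxcr3 and Cxcr5 lie lower in both CA-STAT5A libraries, and Cd8a and Cd8b1 sum to under 5 CPM throughout.

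The receptors sit in a wider list of 80 other homing genes (further chemokine receptors, ligands, chemokines, guidance receptors, selectin and integrin genes, regulators and signalling genes). For BBA against WT Tcm with IL-15, 49 could be tested, of which 10 were higher and 4 lower in BBA, where 23.7% of all genes passed. The largest rises were in the chemokine receptors Ccr6 (2.03 ± 0.59, adjusted p = 0.031), Xcr1 (2.01 ± 0.37, adjusted p = 0.0059) and Cxcr2 (1.97 ± 0.12, adjusted p = 0.00012) and in Bcl6 (1.94 ± 0.26), a regulator of follicular helper cells. Those that fell included Gpr15 (-3.13 ± 0.46), a receptor of colon homing, Fut7 (-1.52 ± 0.31), which makes selectin ligands and Tbx21 (-1.51 ± 0.17), the T-bet gene. In Tnv with IL-15, 4 of 49 were higher in BBA and none lower, no larger a share than the 9.43% of all genes. They were Xcr1 (2.86 ± 0.36), Cxcr2 (2.66 ± 0.16), Rgs16 (2.43 ± 0.56), which dampens G protein signals, and Eomes (1.13 ± 0.17), a regulator of memory CD8+ cells. In CD4+ cells with IL-7 (all genes 5.55%), 3 of 39 were higher in BBA, Ccl5 (5.10 ± 0.78), Eomes (4.33 ± 0.35) and Gpr183 (1.26 ± 0.22), and 2 lower, Rgs1 (-3.72 ± 0.32) and Ptger4 (-0.60 ± 0.08).

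In WT Tnv with IL-15 against none (all genes 6.17%), 1 of 47 rose (S1pr4, 0.81 ± 0.12) and 5 fell, among them Cd69 (-3.36 ± 0.43, adjusted p = 0.0077), whose protein holds S1pr1 inside the cell, and the integrin genes Itgae (-1.95 ± 0.22), Itgb2 (-0.97 ± 0.12) and Itgal (-0.80 ± 0.13). Between WT Tcm and Tnv without cytokine (all genes 2.71%) 13 of 57 were higher in Tcm, among them Ccl5 (5.93 ± 0.41), Xcl1 (4.997 ± 0.49) and Ccl4 (4.71 ± 0.57), and 2 were lower, Itgae (-1.58 ± 0.26) and Itga4 (-1.23 ± 0.15). Between WT Tem and Tcm (all genes 1.9%) 14 of 57 were higher in Tem, led by Itga1 (4.55 ± 0.30), Ccr10 (3.64 ± 0.26), S1pr5 (3.18 ± 0.34) and Ccl5 (2.41 ± 0.31), and 2 lower, among them Eomes (-0.61 ± 0.10). In the retrovirus libraries (all genes 6.76%) 5 of 56 were higher with CA-STAT5A, with Rgs16 (1.99 ± 0.34), S1pr5 (1.81 ± 0.19), Zeb2 (1.43 ± 0.12) and Itga6 (1.36 ± 0.27) the largest, and 6 lower, with Gpr183 (-2.44 ± 0.20), Gpr18 (-1.59 ± 0.21), Xcl1 (-1.44 ± 0.26) and Gpr132 (-1.15 ± 0.16) the largest.

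Some receptors followed each other over the 24 CD8+ groups. Pearson's r of mean log2(CPM + 1) was 0.91 for Cxcr3 with Cxcr5, 0.89 for Ccr7 with S1pr1 and -0.75 for Cxcr3 with S1pr1, as a description, since the groups share state, culture and genotype. Among 9946 genes with a mean of at least 5 CPM, the gene most like Ccr7 was Arrb1 (r = 0.94), a beta-arrestin gene, and that most like S1pr1 was Usp28 (0.95), followed by Arrb1 (0.95). Ccr9 was most like Als2cl (0.96), and Cxcr3 most like Slamf7 (0.96). Genes like Cxcr4 included Abca1 (0.90). Cxcr5 was most like Slc9a7 (0.95), Cxcr6 most like Slc25a24 (0.88) and Cx3cr1 most like Soat2 (0.95).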

How the data were processed

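Poly(A)+ RNA was sequenced single-end at 50 bases. Per the labels and the study's methods the authors aligned reads with TopHat2 and counted them per gene with HTSeq, and the deposited tables hold raw counts per gene symbol. The labels' processing notes name mm9 and the study's methods mm10, so positions come from the GRCm38 annotation and not from the tables. In the table of the retrovirus libraries, 5 summary rows, 67.0% to 68.4% of a library's counts, were removed. The labels of 2 CD4+ libraries contradict themselves on the culture, and these stayed out of every comparison.

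Levels are CPM after TMM normalization of the genes that passed the filter. Genes were filtered on the Jaccard similarity of replicates (thresholds 1 to 200, 100 steps), a gene being kept when any library exceeded the threshold. Each condition's genotypes, each state and genotype's cultures, and WT cells' states within a culture were fitted separately with edgeR 4.0.16 (limma 3.58.1, R 4.3.3) and its quasi-likelihood test, with more than 1.5-fold and a Benjamini-Hochberg adjusted p under 0.05, over all genes kept. Comparisons within a fit share libraries. DESeq2 1.42.0, other filters, size factors, limits, a replicate block, a term for sex and leaving out each library were the alternatives. The scripts were tested on simulated data. Replicates differed by more than counting noise in all 38 pairs.

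The receptors and the list of 80 other homing genes were chosen with earlier results of these data known. From that list up to 4 genes a direction were named in 7 comparisons, taking the largest changes of called genes that averaged 50 normalized counts or more, and for each receptor the genes of highest correlation over the CD8+ groups. A few genes that this rule would name are not reported here.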

Additional observations from a re-analysis of the deposited data

Results flagged for a closer look

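The BBA effect (BBA against WT) differed between Tcm with IL-15 and Tcm without cytokine for 3 receptors by the test of the difference itself in edgeR. It was larger with IL-15 by 0.965 on the log2 scale for S1pr1, by 1.41 for Cxcr4 and by 0.83 for Cxcr5. In S1pr1 the WT and BBA libraries exchanged order between the cultures, and the call was kept in 12 of 12 fits without 1 library. The adjusted p of Cxcr4 was 0.049, and the call was kept in 1 of 12 such fits.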

How the results depend on the processing

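Of the 99 receptor calls, 41 were kept whichever library was left out. Leaving out 1 library gave 10 to 14 calls for BBA against WT in CD8+ cells (11 with all libraries), 2 to 7 for AAB against WT (4) and 1 to 5 for BBA against AAB (4). In CD4+ cells it gave 1 to 4 for BBA against WT (4), and 0 to 0 for AAB against WT and for BBA against AAB (0). For cytokine against none it gave 5 to 16 in WT (11), 8 to 20 in AAB (16) and 7 to 19 in BBA CD8+ cells (14), and 6 to 8 in CD4+ cells (7). Cell state gave 13 to 24 (20), the retrovirus 4 to 6 (5) and the difference of effects 1 to 14 (3), 14 being reached without replicate 2 of WT Tcm with IL-7. In directions that had not passed, Cxcr4 between WT Tcm and Tnv with IL-7 ranged from -0.036 to 1.56 on the log2 scale, turning without Tcm replicate 1. Cxcr6 for BBA against WT in Tcm with IL-15 ranged from -1.10 to 0.30, the latter without WT replicate 1, and was 0.016 without BBA replicate 2.

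With no filter on low counts there were 27 calls for BBA against WT, 16 for AAB against WT and 9 for BBA against AAB in CD8+ cells, 7, 2 and 1 in CD4+ cells, 17 for cytokines in WT, 38 for cell state and 14 for the difference of effects. FilterByExpr left 1 difference of effects. DESeq2 gave 8 calls for AAB against WT in CD8+ cells, 1 for BBA against AAB in CD4+ cells and 10 differences of effects. One fit over all libraries gave 2 for AAB against WT and 0 for BBA against AAB in CD8+ cells. A limit of 2-fold left 2 calls for BBA against AAB, 10 and 7 for cytokines in AAB and BBA cells and 1 difference of effects. Bonferroni adjustment left 1 call for BBA against WT and 0 for AAB against WT and for BBA against AAB in CD8+ cells, 0 for BBA against WT in CD4+ cells, 1 for cytokines in each of WT, AAB and BBA cells, 0 for IL-7 in CD4+ cells, 4 for cell state, 0 for the difference of effects and 0 for the retrovirus. The cause of these moves was not tested. No other alternative moved a count by over 1.5 times or turned a direction.

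With the replicate block there were 22 calls for BBA against WT and 11 for AAB against WT in CD8+ cells, 31 for cell state and 7 differences of effects. The labels do not say whether same-numbered libraries were paired. For WT and BBA CD4+ cells with IL-7, which share 3 numbers, the correlations of their deviations were 0.148, 0.246 and 0.0786. Other pairs of genotypes within a condition share 2 numbers. Their correlations ran from -0.0644 (WT and BBA Tcm with IL-7) to 0.720 (WT and AAB Tem with IL-15). All but the first of these pairs were positive, so a shared effect of the replicate number remains possible. No block by replicate number was fitted for the retrovirus, where 1 control label carries no number, and the term for sex split these 4 libraries into a male and a female pair and kept all 5 calls. No paired analysis was possible for IL-7 in AAB CD4+ cells because the groups share fewer than 2 numbers.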

Other observations

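The labels of 2 CD4+ libraries name no cytokine in one field and IL-7 in another, so neither was placed in a group. The first had 494 CPM of Ccr7, 483 of S1pr1, 290 of Cxcr4, 14.6 of Ccr9, 5.87 of Cxcr5, 1.52 of Cxcr6, 0.839 of Cxcr3 and 0.229 of Cx3cr1. The second had 523 CPM of Ccr7, 557 of S1pr1, 182 of Cxcr4, 45.3 of Ccr9, 14.2 of Cxcr5, 2.15 of Cxcr6, 1.03 of Cxcr3 and 0.28 of Cx3cr1. Stat5a was at 1.91 CPM in the first and 46.0 in the second, and Stat5b at 149 and 103.5.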
